A study of Mus musculus with 6 samples.

Results

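The Notch receptors Notch1, Notch2, Notch3 and Notch4, the ligands Jag1, Jag2, Dll1, Dll3 and Dll4, and the target gene Hes1 were compared between Pax9 knockout and wild type mouse esophagus. Members were every non-control probe whose gene name in the array files was one of these 10 symbols, which gave 14 probes of 41174 on the array. All 14 passed the filter on dim probes, as did 30505 of the 41174. 13 of the 14 were well above background in Cy5 on all 6 arrays, and Dll3 only on the wild type arrays. RNA came from adult C57BL/6J mice, labelled as esophageal epithelium and extracted, per the protocol, from esophageal tissue. 3 arrays carried RNA of K5Cre;Pax9 loxp/loxp mice (Pax9 knockout) and 3 carried RNA of WT mice (wild type). K5Cre places the Cre recombinase under the keratin 5 promoter, which is active in the basal cells of stratified epithelia. Pax9 encodes a paired-box transcription factor. Each array held esophagus RNA in Cy5 and a common reference, Universal Mouse Reference RNA from 11 mouse cell lines, in Cy3. Values are log2 ratios of Cy5 over Cy3, and differences are knockout minus wild type. A call is an adjusted p under 0.05 in limma, with Benjamini-Hochberg adjustment over all 30505 tested probes.

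Notch receptors are membrane proteins that bind Jagged or Delta-like ligands on a neighbouring cell. Binding leads to cleavage of the receptor, and its intracellular domain then enters the nucleus, where it joins the DNA-binding protein RBPJ and coactivators of the Mastermind-like family to switch on genes such as Hes1. In the mouse esophagus the pathway is known for driving basal cells out of the dividing pool and into the differentiating upper layers.

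The array reads each gene through 60-base probes, and 3 members have several. The 3 Notch2 probes lie in a row on the plus strand of chromosome 3 of mouse build mm9, at chr3:97951205-97951264, chr3:97952843-97952902 and chr3:97953914-97953973. They are called upstream, middle and downstream. The first 30 bases of each are shown, since these probes of the same gene gave different results. All positions are those of the array files, and the placement of probes in exons or untranslated regions was not analysed here.
Notch2 upstream probe: cccagagtctcctgaccaatggtcaagctc
Notch2 middle probe: tctgtggtaatctaggatgatagttttctc
Notch2 downstream probe: ccacttgaagtcttgcatagaaatgaacca
The 60 bases of these probes are 53.3%, 40% and 41.7% G or C, in the same order. The array annotation lists 1 RefSeq transcript for each, but 2 Ensembl transcripts for the upstream probe and 0 for the middle and the downstream one.

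The ligand probes whose groups did not overlap are shown the same way, by their first 30 bases. The Jag1 probes lie on the minus strand at chr2:136908942-136909001 (upstream) and chr2:136907433-136907492 (downstream). The Dll1 probe lies at chr17:15504623-15504682 and the Dll3 probe at chr7:29078763-29078822, both on the minus strand.
Jag1 upstream probe: acgagaacaaaaactccaaaatgtcaaaaa
Jag1 downstream probe: ggagtattctcataagctagttgaatactt
Dll1 probe: gattactatgagccagtctttccttgaact
Dll3 probe: gaaagggctttattgtacatattgcttatt
The other 7 probes lie on chromosome 2 (both Notch1 probes and Dll4), chromosome 17 (Notch3 and Notch4), chromosome 12 (Jag2) and chromosome 16 (Hes1). The interval given for the 60-base Hes1 probe spans 296 bases.

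Some facts of the whole series bear on every value. The 3 knockout arrays lay on slide 2 with scan 2 and the 3 wild type arrays on slide 1 with scan 1, so slide, scan and genotype cannot be told apart. The Cy3 reference is the same RNA on all arrays. Cy3 alone, taken after normalization that draws on both channels, differed between the groups for 51.6% of tested probes in the same limma fit. How much of this share comes from the normalization was not tested. Before it, Cy3 of the downstream Jag1 probe overlapped, at 1450 to 1790 in the knockout and 1580 to 1760 in wild type. After it, Cy3 alone of that probe differed by 0.21 (limma adjusted p = 0.024). Between 71.8% and 76.1% of probes on knockout arrays, and between 67.3% and 77.3% on wild type arrays, had Cy5 well above background, and 0 spots were saturated. Signals of single probes are given background-subtracted and not scaled between arrays. The median Cy5 signal over all probes was 97.5, 133 and 124 on the knockout arrays and 56, 72.7 and 159 on the wild type arrays. The median Cy3 signal was 202, 247 and 231 on the knockout arrays and 269, 261 and 261 on the wild type arrays. The labels say biological replicates without naming animals, so a p-value covers no more than the spread among these 6 samples. Pax9 was not lower on the knockout arrays. Its probe at chr12:57811169-57811228 read 6.81, 6.78 and 6.72 on the arrays labelled knockout and 6.28, 6.14 and 5.70 on those labelled wild type, a difference of 0.73 (SE 0.18, limma adjusted p = 0.071). The floxed exons are not named in the labels, and this probe is no check if it lies outside them, so knockout and wild type here always mean arrays so labelled. The basal keratin Krt5 gave Cy5 signals of 397800 to 438400 in the knockout and 193900 to 403900 in wild type, and the suprabasal keratin Krt4 209100 to 305200 and 71820 to 298200, so markers of the labelled epithelium were bright. Skeletal muscle markers were present too.

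Of the 14 member probes 1 rose, the middle Notch2 probe, and 0 fell, against 4.18% of all tested probes called (2.39% higher and 1.78% lower). With replicate number blocked, the same probe was the only member called (limma adjusted p = 0.020), where 7.39% of all tested probes were called. With the scanner program's log ratio, where 2.38% were called, none of the 13 probes well above background on all 6 arrays passed. Of the 13 probes well above background on all 6 arrays, 4 had an unadjusted p under 0.05 in limma, against 20.8% of all probes of that kind. In 6 of the 13 the values of the groups did not overlap, 3 higher and 3 lower in the knockout, where 27.5% of all such probes were separated. The median difference was 0.095 over the 13 probes and -0.015 over all such probes. Dll3 is left out of these counts because it passed the filter only through wild type. Probes of a gene share their target, so 14 probes stand for 10 genes. The plot of the members' log2 ratios by array shows every value.

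**Figure D1:**
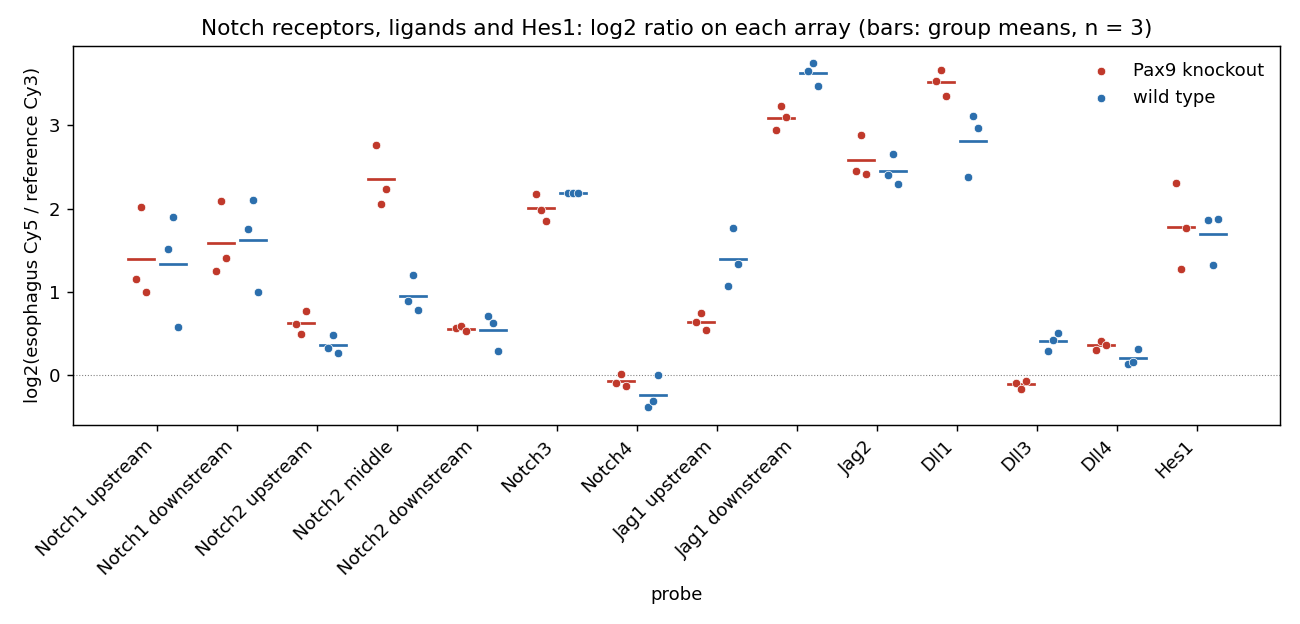
Log2 ratio of esophagus Cy5 over reference Cy3 (y axis) on each array for the 14 member probes (x axis). Points are single arrays and bars are group means, n = 3. The middle Notch2 probe is higher in all 3 knockout arrays, at 2.06 to 2.76, than in the wild type arrays, at 0.78 to 1.21. Both Jag1 probes lie lower in all 3 knockout arrays. Dll3 lies lower too, but was not well above background on any knockout array and passed the filter only through wild type.

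Notch2, the receptor with 3 probes, gave the only member call, and only in its middle probe. That probe read 2.76, 2.06 and 2.24 on the knockout arrays, against 0.89, 1.21 and 0.78 on the wild type arrays. The lowest knockout array was well above the highest wild type array. The probe averaged 2.35 ± 0.37 in the knockout and 0.96 ± 0.22 in wild type (SD, n = 3 each), and rose by 1.39 (SE 0.22, 95% interval 0.87 to 1.92, 2.63-fold, limma adjusted p = 0.025). In tissue RNA, more or fewer cells that express a gene and more or less RNA per cell cannot be told apart, here and for every member.

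The middle Notch2 probe differed more in the esophagus channel than in the reference. Its background-subtracted Cy5 signal, not scaled between arrays, was 2058, 1401 and 1626 on the knockout arrays and 210, 323 and 598 on the wild type arrays. Its Cy3 reference signal was 650 to 670 on the knockout arrays and 559 to 580 on the wild type arrays. In Cy3 alone, taken after normalization, the difference was 0.37 (limma adjusted p = 0.0097). With Cy5 alone the difference was 1.77 (limma adjusted p = 0.0051), where 29.3% of all tested probes were called. The call was lost with the log ratio written by the scanner program (1.02, limma adjusted p = 0.10), with the series matrix (1.02, adjusted p = 0.11), with median centring (1.47, adjusted p = 0.051) and in 5 of the 6 fits that left out an array, where differences were 1.19 to 1.52 and adjusted p reached 0.11. It was kept without knockout replicate 2 (1.54, adjusted p = 0.033), and also when replicate 2 of each group was left out (1.67, adjusted p = 0.044), a setting added after the data were seen.

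The other Notch2 probes did not show that difference. The upstream probe read 0.62, 0.50 and 0.77 on the knockout arrays and 0.33, 0.49 and 0.27 on the wild type arrays. The groups did not overlap, though replicate 2 of each nearly met, and the difference of 0.27 (SE 0.15, 95% interval -0.08 to 0.62) did not pass (limma adjusted p = 0.32). The downstream probe read 0.56, 0.59 and 0.53 on the knockout arrays and 0.71, 0.63 and 0.29 on the wild type arrays, which overlapped (0.02, 95% interval -0.36 to 0.39, adjusted p = 0.96). Its Cy5 signals of 4283 to 7490 in the knockout and 2769 to 5768 in wild type were far from the background.

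Within each array, the middle probe's log2 ratio exceeded the upstream probe's by 1.46 to 2.15 in the knockout and by 0.51 to 0.72 in wild type. These ranges did not overlap. They are given as a description with no test, since this comparison within the gene was chosen for the values seen. Averaged over its 3 probes, Notch2 differed by 0.56 (SE 0.15, limma adjusted p = 0.072) and did not pass.

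Of 2095 genes with at least 3 tested probes, 157 had a called probe, and 154 had both a called and an uncalled one (7.35% of the 2095). This count was also made after the Notch2 values were seen. The spread between the highest and lowest probe difference was 1.38 for Notch2, against a median of 0.55 over the 2095 genes. A spread at least that large occurred in 3.48% of them.

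**Figure D2:**
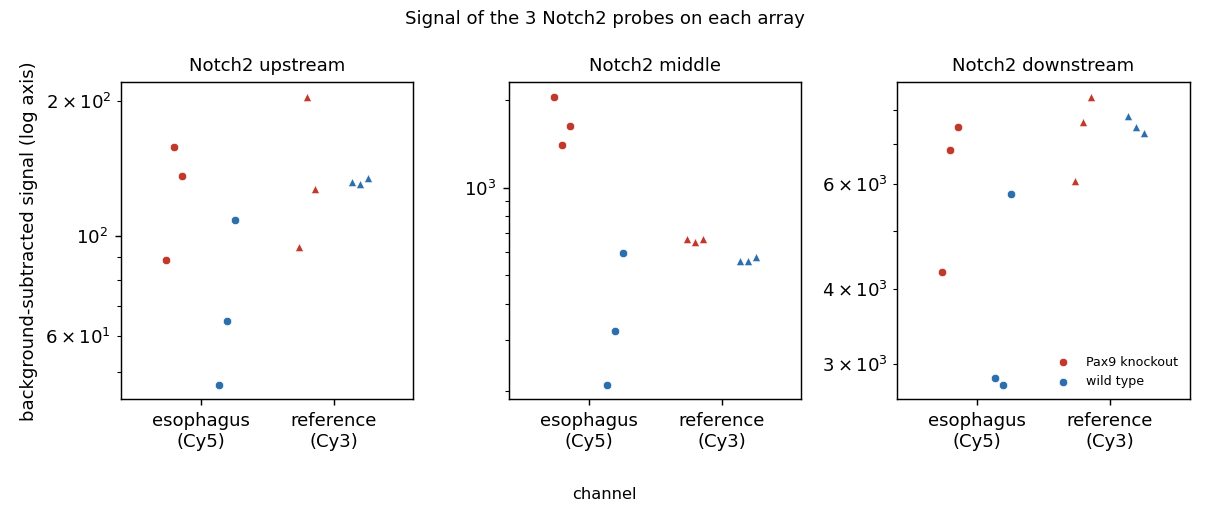
Background-subtracted signal (log axis) of the 3 Notch2 probes in the esophagus channel (circles) and the reference channel (triangles), with 1 point per array and the knockout left of wild type. In the middle panel the 3 knockout Cy5 points lie at 1401 to 2058 and the wild type points at 210 to 598, while the Cy3 points lie at 559 to 670. Signals are not scaled between arrays. The axes differ between panels, and levels of different probes are not comparable.

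Notch1, the receptor best known in esophageal epithelium, gave no detectable difference, with wide intervals. Its downstream probe read 1.25, 2.09 and 1.41 in the knockout and 1.76, 2.11 and 1.00 in wild type. Its upstream probe read 1.15, 2.03 and 1.00 in the knockout and 1.52, 1.90 and 0.58 in wild type. In both probes replicate 2 was the highest array of each group, and the groups overlapped fully. The differences were -0.04 (95% interval -0.83 to 0.75, limma adjusted p = 0.96) and 0.06 (95% interval -0.88 to 1.00, adjusted p = 0.94). The downstream probe is printed 10 times on the array, with 8 to 10 spots used per array. Its spots had an SD of 0.08 to 0.20 within an array, against an SD between arrays of 0.45 in the knockout and 0.56 in wild type.

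Notch3, a receptor known from vascular smooth muscle and also present in epithelium, read 2.17, 1.99 and 1.85 in the knockout and 2.19, 2.19 and 2.19 in wild type. All knockout arrays lay lower, replicate 1 only just, and the difference of -0.19 (SE 0.14, 95% interval -0.53 to 0.15) did not pass (limma adjusted p = 0.48). With Cy5 alone it was -0.58 (adjusted p = 0.024). Cy3 of this probe was 3610 to 4920 on the knockout arrays and 6250 to 6650 on the wild type arrays, so the reference itself was dimmer on the knockout slide. With median centring the difference was 0.08, of opposite sign.

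Notch4, a receptor of endothelial cells, read -0.09, 0.02 and -0.12 in the knockout and -0.39, -0.31 and 0.00 in wild type. The groups overlapped, and the difference was 0.17 (95% interval -0.21 to 0.54, limma adjusted p = 0.57).

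The Jagged ligand Jag1, a membrane ligand of stratified epithelia, lay lower in the knockout in both of its probes without passing the test. The downstream probe read 2.94, 3.23 and 3.098 in the knockout and 3.65, 3.75 and 3.47 in wild type. The upstream probe read 0.64, 0.74 and 0.54 in the knockout and 1.07, 1.77 and 1.34 in wild type. In both, every knockout array was lower than every wild type array. The differences were -0.53 (SE 0.15, 95% interval -0.89 to -0.17, limma adjusted p = 0.099) and -0.75 (SE 0.20, 95% interval -1.23 to -0.27, adjusted p = 0.085). As a mean over both probes Jag1 differed by -0.64 (SE 0.16, adjusted p = 0.060). Over the 18 alternatives the difference stayed below 0, from -0.61 to -0.24 for the downstream probe, called in 1, and from -1.05 to -0.56 for the upstream probe, called in 2. The upstream probe is dim, with Cy5 of 28.7 to 44.2 in the knockout and 53.7 to 108 in wild type.

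Jag2, the other Jagged ligand, read 2.45, 2.88 and 2.42 in the knockout and 2.40, 2.66 and 2.30 in wild type. The groups overlapped, and the difference of 0.14 (95% interval -0.30 to 0.58) did not pass (limma adjusted p = 0.70).

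Among the Delta-like ligands, Dll1 lay higher in the knockout, again short of the threshold. It read 3.54, 3.66 and 3.35 in the knockout and 2.38, 3.11 and 2.96 in wild type. The groups did not overlap, and wild type replicate 1 stood lowest of all. The probe averaged 3.51 ± 0.16 in the knockout and 2.82 ± 0.39 in wild type (SD, n = 3 each), a difference of 0.70 (SE 0.22, 95% interval 0.18 to 1.22, limma adjusted p = 0.12). It is printed 10 times, with 9 or 10 spots used, and its spots had an SD of 0.06 to 0.17 within an array. With Cy5 alone the difference was 0.96 (adjusted p = 0.028). Over the 18 alternatives it stayed above 0, from 0.43 to 0.96, with this call only.

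Dll3, a Delta-like protein that acts mainly inside the cell, read -0.09, -0.16 and -0.07 in the knockout and 0.30, 0.43 and 0.51 in wild type. Every knockout array was lower, and the difference was -0.52 (SE 0.14), which did not pass (limma adjusted p = 0.080). Its Cy5 was 5.44, 5.85 and 10.5 in the knockout, not well above background on any of these arrays, and 31.0, 42.3 and 88.2 in wild type. Such a probe has only a bound in the knockout, and it was tested only because wild type was bright, so its difference is a description and no fold is given. Its Cy3 was 20.3 to 24.2 on the knockout arrays and 69.0 to 79.1 on the wild type arrays, so the common reference was also dimmer on the knockout slide. The part of that slide difference in the Dll3 values was not tested.

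Dll4, a ligand of sprouting endothelium, read 0.31, 0.41 and 0.36 in the knockout and 0.13, 0.17 and 0.31 in wild type, with knockout replicate 1 below wild type replicate 3. The difference was 0.16 (95% interval -0.16 to 0.47, limma adjusted p = 0.52), and it was -0.16 with the scanner program's log ratio and -0.21 with median centring.

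**Figure D3:**
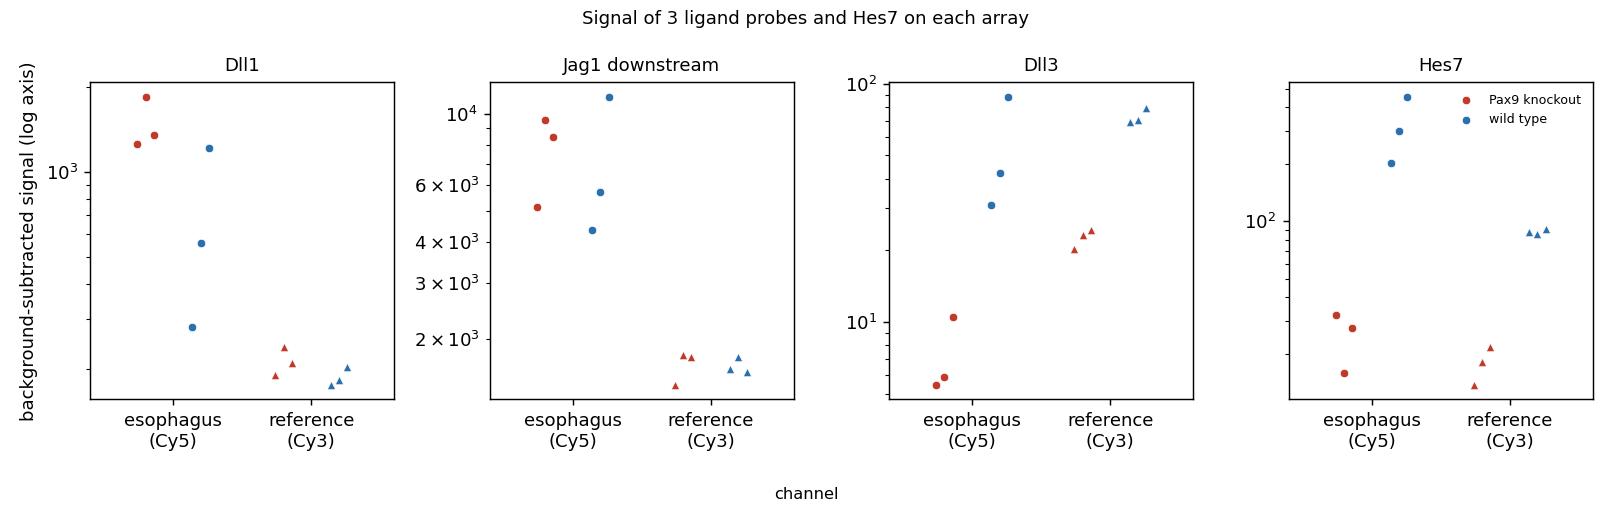
Background-subtracted signal (log axis) of the Dll1, downstream Jag1, Dll3 and Hes7 probes in the esophagus (circles) and reference (triangles) channels, with 1 point per array and the knockout left of wild type. For Dll3 and Hes7 the reference points also part by slide, at 20.3 to 24.2 and 13.8 to 21.9 in the knockout against 69.0 to 79.1 and 86.3 to 91.4 in wild type. Signals are not scaled between arrays.

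Hes1, the repressor that serves as a standard readout of Notch signalling, read 2.31, 1.28 and 1.77 in the knockout and 1.87, 1.33 and 1.87 in wild type. Both the highest and the lowest array were knockout arrays. The difference of 0.10 (SE 0.29, 95% interval -0.59 to 0.78) did not pass (limma adjusted p = 0.87), and it turned to -0.16 without knockout replicate 1. Cy3 of this probe was 390 to 610 on the knockout arrays and 658 to 685 on the wild type arrays.

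The plot of differences under 4 ways of scaling sets these results side by side. The middle Notch2 probe lay above 1.0 in all 4. Jag1 stayed below 0 in both probes and Dll1 above 0. The Notch1, Notch3, Notch4, Dll4, Hes1 and downstream Notch2 probes lay on both sides of 0.

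**Figure D4:**
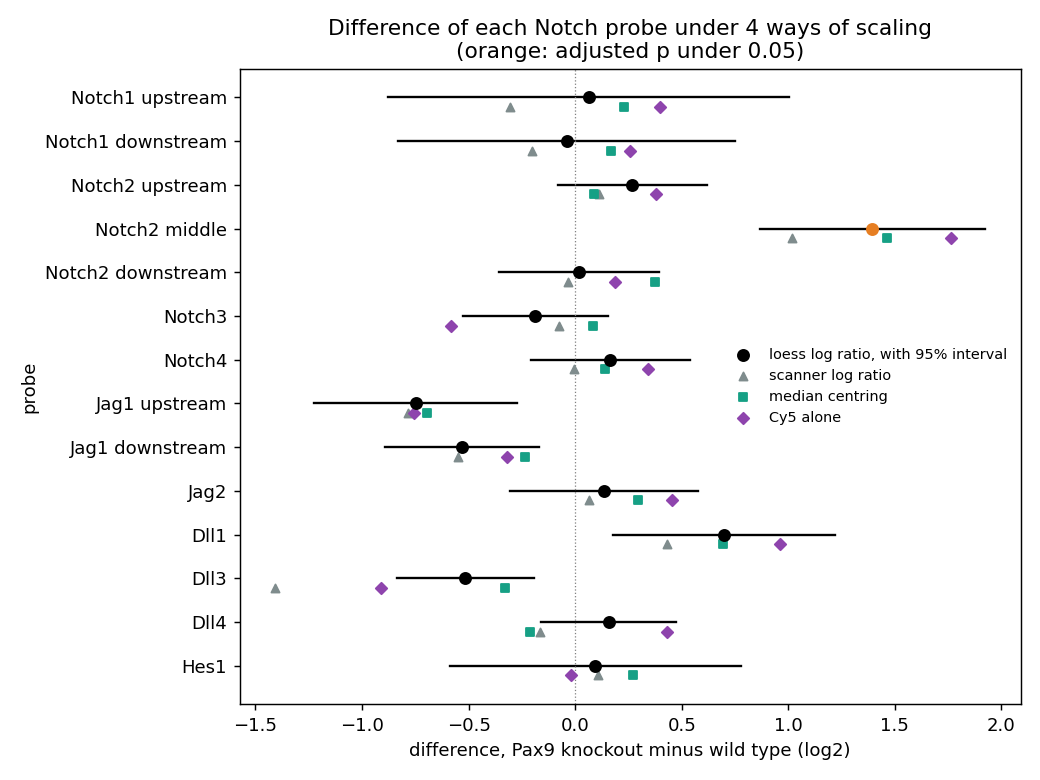
Difference of each member probe, Pax9 knockout minus wild type (log2, x axis), under 4 ways of scaling. Black circles are the loess log ratios with their 95% intervals, with the called probe in orange, and the other symbols are the scanner program's log ratio, median centring and Cy5 alone. The middle Notch2 probe is the only circle beyond 1.0, and the intervals of both Jag1 probes and Dll1 exclude 0 before adjustment over all probes. Dll3 was not well above background on any knockout array.

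The other genes of the pathway came from a list of 56 genes in 6 roles. A probe was found for 55, and 82 probes of 53 genes passed the filter. Of these 82 probes 1 rose and 1 fell, against 2.39% and 1.78% of all tested probes. The median difference was 0.004 over the 74 of them well above background on all 6 arrays. With replicate number blocked 6 of the 82 passed, Hes7, Dtx4 and probes of Maml2, Aph1b, Dner and Mfap5, where 7.39% of all tested probes were called.

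Among 11 tested probes of Hes, Hey and Nrarp genes, the target and feedback genes of the pathway, 1 fell. This was Hes7, a repressor best known from the segmentation clock of the mouse embryo, at chr11:68935657-68935716. It read 0.62, 0.00 and 0.26 in the knockout and 2.40, 2.74 and 2.35 in wild type, with all knockout arrays far lower. It fell by 2.20 (SE 0.21, 95% interval -2.68 to -1.72, limma adjusted p = 0.0082). Its Cy5 was 32.3, 15.98 and 27.3 in the knockout and 204, 299 and 454 in wild type, while its Cy3 reference was 13.8 to 21.9 and 86.3 to 91.4. The common reference thus differed between the slides in the same direction, and its part in the Hes7 result was not tested. On the knockout arrays this probe is dim in both channels, which limits what the size of its difference shows. The call held in 15 of 18 alternatives, and was lost with the scanner program's log ratio (-1.83, adjusted p = 0.074), the series matrix and without knockout replicate 3 (-2.18, adjusted p = 0.054). Of the well-known targets, Hey1 (0.06, adjusted p = 0.93), Hes5 (0.25, adjusted p = 0.47) and Nrarp (-0.08, adjusted p = 0.78) did not pass. The groups did not overlap in 5 of the 11 probes, where 27.5% of all probes well above background on all 6 arrays were separated. Besides Hes7 these were the Hes2 probes (0.57 and -0.46), a Hes6 probe (-0.49) and Hes3 (0.60), with adjusted p of 0.14, 0.19, 0.10 and 0.096. Hes3 passed the filter only through the knockout.
Hes7 probe, first 30 bases: ccgaagctggagaaagcggagatactggag

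In the group for endocytosis and turnover of receptors and ligands, 1 of 22 tested probes rose. It belongs to Dtx4, a Deltex-family E3 ubiquitin ligase, at chr19:12543048-12543107. The probe read -1.29, -1.49 and -1.37 in the knockout and -2.08, -2.09 and -2.17 in wild type, without overlap. It rose by 0.73 (SE 0.14, limma adjusted p = 0.036). The other Dtx4 probes also lay higher without overlap, by 0.35 and 0.44, but did not pass (adjusted p = 0.30 and 0.27). The Dtx4 call was kept in 7 of 18 alternatives and in 0 of the 6 fits that left out an array (adjusted p up to 0.16).

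In the remaining roles 0 probes passed in limma without the block, and 4 passed with it. Among 19 probes of nuclear factors the smallest p was that of a probe of Maml2, a Mastermind-like coactivator. It differed by -0.88 (SE 0.19, adjusted p = 0.050, just above the threshold), and passed with the replicate block (adjusted p = 0.037) and in 8 of the 18 alternatives. Its Cy3 was 149 to 201 in the knockout and 458 to 470 in wild type. The other Maml2 probes differed by -0.28 and 0.03. Rbpj differed by 0.27 (adjusted p = 0.34). Among 7 probes of Fringe and other glycosylation enzymes the smallest p was that of a probe of Lfng, which adds sugars to the receptor (0.57, adjusted p = 0.16). Among 13 probes of the receptor-cleaving proteases it was Adam10, which makes the ligand-dependent cleavage (-0.74, SE 0.18, adjusted p = 0.066). A probe of Aph1b, a subunit of the gamma-secretase complex that frees the intracellular domain, differed by -0.90 (adjusted p = 0.19, and 0.039 with the block). The other Aph1b probes differed by -0.43 and -0.31 (adjusted p = 0.21 and 0.46). Among 10 probes of other ligands the smallest p was that of a probe of Cntn1, an adhesion protein of neurons (0.55, adjusted p = 0.085). This Cntn1 probe was not well above background on any wild type array and was tested only because the knockout was bright, so no fold is given. In the same role, a Dner probe (0.80) and Mfap5 (1.26) had adjusted p of 0.33 and 0.32 without the block, and 0.042 and 0.015 with it. The other Dner probe differed by 0.71 (adjusted p = 0.37).

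**Figure D5:**
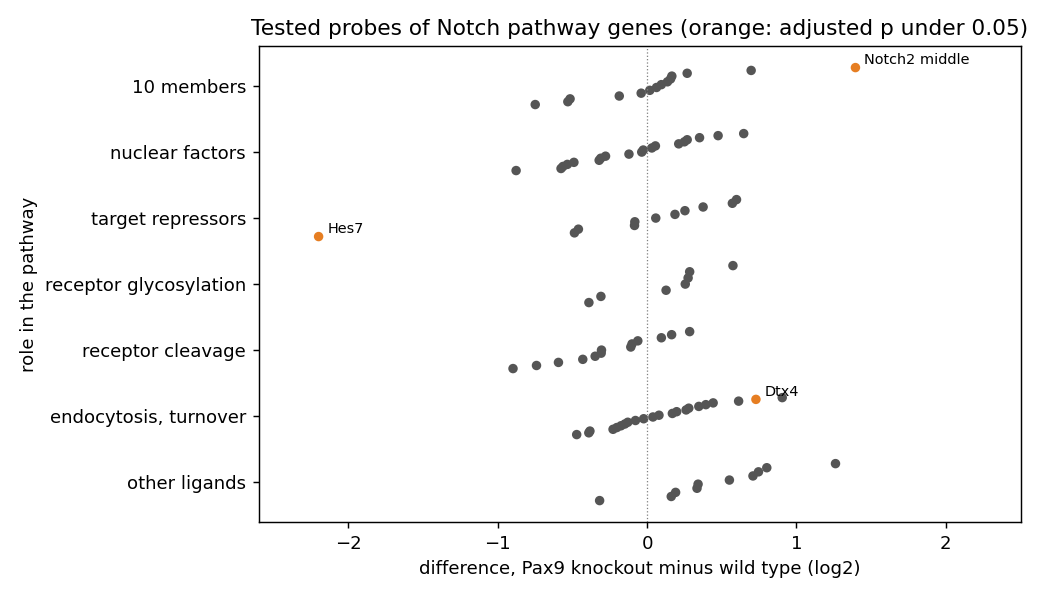
Difference of each tested probe of the 10 members and of 6 groups of pathway genes, Pax9 knockout minus wild type (log2, x axis), with 1 point per probe sorted within its row. The 3 probes called are orange: the middle Notch2 probe at 1.39, Dtx4 at 0.73 and Hes7 at -2.20.

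The promoter of Hes7 is shown because Hes7 is a Notch target and had the largest difference among the pathway probes. The window holds the 250 bases before the RefSeq start of Hes7 on build GRCm38.p6, at chr11:69120203-69120452 on the plus strand. Capitals mark the letters of TGTGGGAA on the opposite strand, a form of the sequence that RBPJ binds, which starts 180 bases before the gene start.
Hes7 promoter: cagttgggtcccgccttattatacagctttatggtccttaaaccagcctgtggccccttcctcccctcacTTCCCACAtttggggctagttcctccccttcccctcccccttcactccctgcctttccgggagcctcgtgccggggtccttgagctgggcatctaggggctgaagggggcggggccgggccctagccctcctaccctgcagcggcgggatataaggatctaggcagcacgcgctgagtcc
4 overlapping forms were searched on both strands, after the values were seen. Of 32851 RefSeq promoter windows of the same length, 21.6% held the core TGGGAA. The form GTGGGAA occurred in 5.42% of these windows. The form CGTGGGAA occurred in 0.636% and the form shown in capitals in 1.46%. In 10 windows of 9 member genes, Hes1 having no entry in the table, none of the 4 forms was found. Hes7 held all but CGTGGGAA. In 61 windows of 43 other pathway genes, GTGGGAA occurred in 11.5% and the capitalised form in 3 (4.92%), those of Hes7, Hes5 and Psen2. Neither Hes5 (0.25) nor Psen2 (0.10, adjusted p = 0.74) passed the test. A match is a description of the letters in this window, not a binding site.

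Other cell types could contribute Notch RNA, since Notch3 and Notch4 are also known from vessels. Summed Cy5 over endothelial markers was 14600 to 17500 in the knockout and 13300 to 15300 in wild type, and 0 of 16 tested probes were called. Of the 16, 11 lay above 0, with a median difference of 0.41, against -0.003 over all tested probes. The groups did not overlap in 5 of the 16, where 27.5% of all probes well above background on all 6 arrays were separated. The 16 differences ran from -0.55 for a Sox17 probe, one of those without overlap, to 1.06 for Cldn5 (limma adjusted p = 0.095). Pecam1 differed by -0.01 (adjusted p = 0.97) and the Cdh5 probes by -0.06 and 0.70 (adjusted p = 0.94 and 0.13). Notch4 and Dll4 differed by 0.17 and 0.16. Smooth muscle and pericyte markers summed to 140000 to 365000 in the knockout and 105000 to 364000 in wild type, with 0 of 20 called, 16 above 0 and a median difference of 0.22. The tested Acta2 probes differed by 0.10 to 0.58 and Myh11 by 0.23 (adjusted p = 0.75). The part of these cells in the Notch values was not tested.

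Skeletal muscle markers varied most between arrays. They summed to 260000 to 1490000 in the knockout and 71500 to 745000 in wild type, with replicate 2 highest in each group, and 13 of 14 tested probes lay above 0 (median difference 1.14). Of the 14, 1 was called, a Myh2 probe (1.63, limma adjusted p = 0.040), in which replicate 2 was the lowest array of each group. In the other tested Myh2 probes replicate 2 was the highest array of each group. These differed by 1.47, 1.14 and 1.15 and did not pass (adjusted p = 0.52, 0.57 and 0.56). By summed Cy5, replicate 2 was also the highest array in both groups for endothelial and neural markers. It was the lowest in both for fibroblast, suprabasal and immune markers. Among the members, replicate 2 was highest in both groups for 6 probes, both of Notch1, both of Jag1, Jag2 and Dll1. It was lowest in both for Hes1. Of 30490 tested probes, 4484 had replicate 2 highest in both groups and 5945 had it lowest in both. Either pattern held for 7 of 14 members, against 34.2% of all tested probes, a count taken after the values were seen. The middle Notch2 probe was not among these 7. Of the other marker lists, fibroblast, suprabasal and neural probes gave 0 calls, and 1 basal probe fell (Sox2, by 1.04, adjusted p = 0.023). Among immune probes 1 fell (Cd207, a marker of Langerhans cells, by 3.35, adjusted p = 0.010). Of the 14 tested immune probes 2 lay above 0, with a median difference of -0.56. Immune markers summed to 3460 to 8300 in the knockout and 6950 to 14600 in wild type.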

How the data were processed

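The scanner files that the authors deposited hold linear intensity values of both channels and a log10 ratio of Cy5 over Cy3. Per the file headers, the program was Agilent Feature Extraction, version 10.7.3.1, the design 014868 and the build mm9. Version 9.1 stands in the submitters' processing notes. The deposited series matrix holds log2 values that correlated with the scanner ratio at -0.996 to -0.993, so their sign was turned round. Its column medians were -0.02 to 0.02, with the centring step not stated. It has 0 unused sample columns.

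Intensities were background-corrected (normexp, offset 50, which pulls ratios of dim probes towards 0) and normalized by loess within each array. Control spots were left out, 55 to 164 outlier spots per array were set to missing, and spots of a probe were averaged. Probes were tested where all 3 arrays of a group had Cy5 well above background, in the knockout, in wild type or in both. Groups were fitted with limma 3.58.1 in R 4.3.3 (two-sided, no covariate), adjusted over all 30505 tested probes. The procedure was tested on simulated data. Cy5 alone and Cy3 alone were taken after loess and Aquantile, so each also draws on the other channel. Both are open to dye bias, since dyes were not swapped. The number of arrays limits the precision.

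Both groups use replicate numbers 1 to 3. Over tested probes, arrays of the same number correlated at 0.17, 0.51 and 0.34 in how they deviated from their group, and arrays of different numbers at -0.49 to 0.16. By the rule of over 0.1 in every pair of the same number, the numbers were taken to pair the arrays. SEs, intervals and adjusted p come from fits without this pairing, except where the block is named. Knockout replicate 3 and wild type replicate 1 also exceeded 0.1 (0.16), so the rule does not single out the pair numbered 1. Numbers 1, 2 and 3 lay at slide positions 2, 3 and 4, so pairing and position cannot be told apart.

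The members, gene lists and tests were chosen with earlier results of these data known. Named genes were the 10 members, pathway genes past the threshold, the pathway gene with the smallest p in each role, Pax9, called markers and 4 vessel and muscle markers. Hey1, Hes2, Hes3, Hes5, Hes6, Nrarp, Rbpj, Psen2, Aph1b, Dner, Mfap5, Cldn5, Sox17, Krt5 and Krt4 were named after their values were seen. Gene symbols were updated through a RefSeq table of GRCm38.p6, which matched 26918 probes by accession and 5899 by name, and promoter sequences are RefSeq's. 18 alternatives were run.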

Additional observations from a re-analysis of the deposited data

How the results depend on the processing

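The count of called probes depended on the processing, both for all probes and for the members. Against 1274 probes in all and 1 member, there were 727 with the scanner program's log ratio, 714 with the series matrix, 699 when probes had to be well above background on all 6 arrays, and 139 with 0 members under median centring. Cy5 alone called 8936 (29.3% of all tested probes) with 5 members, and array weights 4903 (16.1%) with 4. An offset of 0 or no background subtraction called 2 members, where 4.88% and 5.75% of all tested probes were called. Dll3, tested only through wild type, is among the members called in these 4 settings and is the member called with the scanner ratio and the matrix. Without an array the counts ran from 38 to 1111 in all and from 0 to 1 in members, with 38 lacking knockout replicate 3 and 108 lacking wild type replicate 1. Without replicate 2 in both groups, added after seeing the data, 396 were called. The replicate block called 2254 and, for members, again only the middle Notch2 probe (adjusted p = 0.020), so it changed no member call. The Maml2 probe passed with it (adjusted p = 0.037), and 6 pathway probes in all against 2.

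Signs turned only for probes that did not pass in the fit of the loess log ratios without the block. Of these, Notch3 was called with Cy5 alone and Cntn1 in 5 of 17 alternatives. The downstream Notch1 probe gave 0.17 with median centring, 0.26 with Cy5 alone, 0.012 as a mean over both Notch1 probes and -0.35 to 0.20 over the fits without an array. The upstream Notch1 probe gave -0.30 with the scanner ratio and the matrix, -0.34 with array weights and -0.31 to 0.35 without an array. The downstream Notch2 probe gave -0.031 with the scanner ratio and the matrix, -0.064 with array weights and -0.11 to 0.10 without an array. Median centring gave Notch3 0.082, Dll4 -0.21 and Cntn1 -0.099. The scanner ratio and the matrix gave Notch4 -0.0028 and Dll4 -0.16. Jag2 lay at -0.013 to 0.24 without an array, lowest without knockout replicate 2. Hes1 gave -0.018 with Cy5 alone and -0.16 to 0.35 without an array. The cause was not tested. Dim probes such as Dll3, the upstream Jag1 probe and, in the knockout, Hes7 lie close to background, which limits what their values show.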
